A study of Mus musculus with 18 samples.

Results

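The cerebellins, Cbln1, Cbln2, Cbln3 and Cbln4, are small secreted proteins of the C1q family that organize synapses. They were chosen by name, as every probe annotated to Cbln1 to Cbln4, and made up 4 of the 19057 genes that had a probe with 1 gene symbol. Cbln1 and Cbln4 each had 1 probe and Cbln2 and Cbln3 each had 2. Each gene was read from the probe with the highest mean over all 18 arrays, and these means were 12.77 for Cbln1, 4.14 for Cbln2, 4.11 for Cbln3 and 5.28 for Cbln4 on the log2 scale.

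Cerebellins form hexamers in the synaptic cleft that bind presynaptic neurexins on one side and a postsynaptic receptor on the other. In the cerebellum, Cbln1 is released by granule neurons and holds together the parallel fibre synapse that they form on Purkinje cells. Cbln3 is a granule neuron protein that is secreted together with Cbln1, Cbln2 acts at synapses in other brain regions, and Cbln4 binds neurexins and also the netrin receptors Dcc and neogenin (the product of Neo1). Granule neurons arise after birth from granule neuron progenitors (GNPs), the cells from which Sonic hedgehog medulloblastoma (MB) starts when the hedgehog receptor gene Ptch1 is impaired.

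RNA was profiled on Illumina MouseWG-6 BeadChips from GNPs of 4 genotypes, with 4 arrays each, and from 2 MBs. The wild type (WT) and Ptch+/- GNPs and the Ptch+/- MB were labelled as C57Bl/6, whereas the NdpKO GNPs, which lack the X-linked gene for the secreted Wnt-pathway ligand Norrin through a germ-line lacZ cassette, were of mixed background. No strain was given for 3 of the 4 compound NdpKO;Ptch+/- GNP arrays or for the NdpKO;Ptch+/- MB. All GNPs came from postnatal day 6 cerebella and were purified on a percoll gradient and by pre-plating. Per the study's methods, NdpKO and NdpKO;Ptch+/- mice from the experimental cross were males, whereas controls included both sexes, and the deletion was present in every cell of the mouse. The labels also give postnatal day 6 for the tumors, although these were described as established MBs. With 1 tumor per genotype, the MBs were compared with GNPs together, and the tumors could not be tested against each other. The study's methods also state that compound mutants and their controls shared a breeding cohort to match backgrounds, whereas the strain labels differ between groups. With strains as labelled, strain and sex cannot be told apart from Ndp loss when NdpKO or NdpKO;Ptch+/- GNPs are compared with WT GNPs. The same holds for NdpKO;Ptch+/- against Ptch+/- GNPs.

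Values are log2 normalized intensities, and 23.0% to 23.9% of the probes on an array reached level 5, which was taken here as the edge of the background. Ptch1 was lower in the Ptch+/- than in the WT GNPs by 0.80 ± 0.10 (SE), with an adjusted p of 0.004 in limma. The Ndp probe lay between 4.10 and 4.13 on every GNP array, at background, and so does not check the knockout. NdpKO;Ptch+/- replicate 2 has a title that names the compound genotype but source and genotype labels that name Ndp knockout. It was grouped by its title, and its Ptch1 value of 7.80 lay below all 4 NdpKO arrays (8.65 to 8.97). The Prm1 probe was at background on every WT and NdpKO GNP array (4.11 to 4.13). It read 10.13 to 10.51 on the Ptch+/- GNPs and 9.92 on this array. In both probes this array thus lay with the Ptch+/- rather than the NdpKO GNPs. On the first principal component of the 16 GNP arrays (43.6% of the variance), NdpKO replicate 4 scored 15.2 while the other NdpKO arrays lay between -20.0 and -14.5. NdpKO;Ptch+/- replicate 1 scored -16.6 while the others of its genotype lay between 8.41 and 19.7. In Prm1 these 2 arrays read 4.12 and 10.66, each in keeping with the Ptch status of its label. Prm1 was alike in WT and NdpKO GNPs and high in both Ptch+/- genotypes, so it does not check the Ndp status of these arrays. Differences of Cbln1 and Cbln4 that rest on these arrays are given with and without them.

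Cbln4, the member with the largest difference among the 4, was read by probe ILMN_2639849. The 250 bases before its start on mouse chromosome 2 (RefSeq, build GRCm38.p6, chr2:172043467-172043716, minus strand) are shown because this gene passed from near background in GNPs to well above it in both MBs. Capitals mark 1 CCAAT box and 2 GC boxes (GGGCGG), all read on the opposite strand, and the GC boxes overlap by 1 base.
Cbln4 upstream region: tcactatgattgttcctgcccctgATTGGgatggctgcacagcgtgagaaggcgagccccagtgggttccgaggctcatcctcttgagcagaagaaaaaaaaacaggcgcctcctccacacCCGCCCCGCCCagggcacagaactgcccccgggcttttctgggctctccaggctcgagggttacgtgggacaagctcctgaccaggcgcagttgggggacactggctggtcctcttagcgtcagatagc
The CCAAT box starts 226 bases before the start of the gene and the GC boxes at 129 and 124 bases. Of the 32851 promoter windows of the same length, searched on both strands, 33.8% held CCAAT and 32.7% held GGGCGG, so both are common. The GLI consensus GACCACCCA, held by 0.225% of the windows, and the E-box CAGCTG, held by 13% of them, had no match in these letters.

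Cbln1 was far above background on every GNP array and lower in both MBs, whereas Cbln4 was at or near background in most GNPs and high in both MBs. Cbln2 and Cbln3 were at background throughout. In the MBs, 2 of the 4 genes were called (1 higher and 1 lower), and in the 6 comparisons among GNPs none of the 4 passed the test.

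For Cbln1 (ILMN_1252953), the WT GNPs read 12.58, 12.55, 12.37 and 12.86 in replicates 1 to 4. The Ptch+/- GNPs read 13.28, 13.40, 13.12 and 13.07, all above every WT array. The NdpKO GNPs split, with 13.44 and 13.35 in replicates 1 and 3 but 12.70 and 12.65 in replicates 2 and 4, so that this group overlapped all the other GNP groups. The NdpKO;Ptch+/- GNPs read 13.08, 12.61, 12.85 and 12.90. The MBs read 11.71 (Ptch+/-) and 11.32 (NdpKO;Ptch+/-), below all 16 GNP arrays. From low to high, the group means were 12.59 ± 0.20 (SD, n = 4) in WT, 12.86 ± 0.19 in NdpKO;Ptch+/-, 13.04 ± 0.42 in NdpKO and 13.22 ± 0.15 in Ptch+/- GNPs, and neighbours in this order overlapped.

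For Cbln4, WT replicate 1 read 4.50 and the other WT arrays 5.93, 5.61 and 5.34. The Ptch+/- GNPs lay between 4.19 and 4.30 and the NdpKO GNPs read 4.21, 4.18, 4.18 and 4.55, so no array of either single mutant reached level 5. The NdpKO;Ptch+/- GNPs read 4.34, 4.77, 5.01 and 5.99. In all, 5 of the 16 GNP arrays reached level 5, 3 of them WT and 2 NdpKO;Ptch+/-. The MBs read 9.06 (Ptch+/-) and 10.24 (NdpKO;Ptch+/-), far above every GNP array. The means were 4.27 ± 0.05 (SD, n = 4) in Ptch+/-, 4.28 ± 0.18 in NdpKO, 5.03 ± 0.70 in NdpKO;Ptch+/- and 5.35 ± 0.61 in WT GNPs. The lower pair of groups overlapped each other, as did the higher pair.

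**Figure D1:**
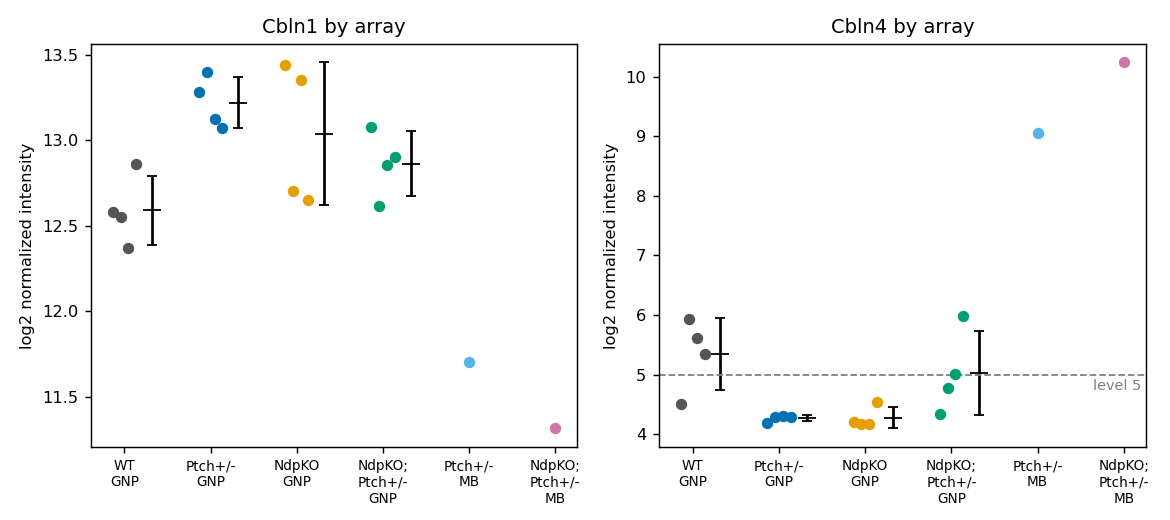
Log2 normalized intensity of Cbln1 (left) and Cbln4 (right) on each of the 18 arrays by group, with 1 point per array and, beside each GNP group, its mean and SD (n = 4); each panel has its own scale. Both MBs lie below all GNP arrays for Cbln1, at 11.71 and 11.32, and above all of them for Cbln4, at 9.06 and 10.24.

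Cbln2 and Cbln3 gave no signal above background. The probes of Cbln2 lay between 4.09 and 4.15 and those of Cbln3 between 4.09 and 4.12 over all 18 arrays, and nothing can be said of their differences at this signal. Gabra6, the GABA receptor subunit that marks mature granule neurons, was likewise at background in every group, with a mean of 4.10 in each.

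In Ptch+/- against WT GNPs, which asks what loss of 1 Ptch1 allele did to progenitors before tumors form, Cbln1 was 0.63 ± 0.18 (SE) higher, 1.54-fold. Its adjusted p was 0.12 (limma, Benjamini-Hochberg over all 45281 probes) and its 95% interval ran from 0.24 to 1.02. Cbln4 was 1.08 ± 0.33 lower, with an adjusted p of 0.15. Because the Ptch+/- arrays were all near background, the Cbln4 fold is a bound, at least 1.27-fold. None of the 4 genes was called, where 1.09% of all probes were. At an unadjusted p below 0.05 there were 2 (Cbln1 and Cbln4). For the same 2 genes the groups did not overlap, as for 9.28% of all probes. Without the probes that average under 5, Cbln1 was called with an adjusted p of 0.033, at the same difference of 0.63.

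In NdpKO against WT GNPs, Cbln1 was 0.45 ± 0.18 higher (adjusted p = 0.38 in limma) and Cbln4 1.07 ± 0.33 lower (adjusted p = 0.21). None of the 4 was called, against 0.307% of all probes, and 2 had an unadjusted p below 0.05. No member was free of overlap between these groups, against 5.47% of all probes. Without NdpKO replicate 4, the difference was 0.58 for Cbln1 and -1.16 for Cbln4. The comparison shares the WT arrays with the one above, so similar values in both are not separate evidence.

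In NdpKO;Ptch+/- against Ptch+/- GNPs, the comparison that bears on Norrin loss in the tumor-prone cerebellum, Cbln1 was lower by 0.36 ± 0.18 (adjusted p = 0.62 in limma) and Cbln4 higher by 0.76 ± 0.33 (adjusted p = 0.54). No member was called, against 0.0155% of all probes, and 1 (Cbln4) had an unadjusted p below 0.05. Cbln4 alone of the 4 did not overlap between the groups, as 4.95% of all probes did not. Its bound was at least 1.02-fold, since 2 of the 4 compound arrays were also under level 5. Without NdpKO;Ptch+/- replicate 1 the differences were -0.43 for Cbln1 and 0.99 for Cbln4 (adjusted p = 0.45 and 0.22). Against NdpKO GNPs, the compound GNPs differed by -0.18 for Cbln1 (adjusted p = 0.93 in limma) and 0.75 for Cbln4 (adjusted p = 0.87). No member was called, against 0.00442% of all probes, 1 had an unadjusted p below 0.05, and none was free of overlap, against 2.56%. Without NdpKO replicate 4 and NdpKO;Ptch+/- replicate 1 the differences were -0.38 and 1.07 (adjusted p = 0.49 and 0.21), in a setting chosen after the data were seen. Against WT GNPs, they differed by 0.27 for Cbln1 (adjusted p = 0.86 in limma) and -0.32 for Cbln4 (adjusted p = 0.94). No member was called, against 0.0508% of all probes, none had an unadjusted p below 0.05, and none was free of overlap, against 3.63%. Without NdpKO;Ptch+/- replicate 1 the differences were 0.20 and -0.09 (adjusted p = 0.94 and 1).

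The interaction asks whether Ndp loss acted differently in Ptch+/- than in Ptch-intact GNPs. It was -0.80 ± 0.25 for Cbln1 (adjusted p = 0.17 in limma) and 1.83 ± 0.46 for Cbln4 (adjusted p = 0.096). Neither was called, against 0.495% of all probes, though 2 members had an unadjusted p below 0.05. In values, Cbln1 was higher with NdpKO alone and lower when Ndp loss was added to Ptch+/-, and Cbln4 the other way round. Both estimates depended on the 2 arrays that lay away from their own genotype on the first principal component. Without NdpKO;Ptch+/- replicate 1 the interaction of Cbln4 was 2.06 (adjusted p = 0.033), and without both arrays it was 2.15 for Cbln4 (adjusted p = 0.022) and -1.0 for Cbln1 (adjusted p = 0.04), a setting chosen after the data were seen. That component set the WT and most compound arrays apart from the Ptch+/- and most NdpKO arrays, the same split as the interaction. Fits without these arrays are therefore no independent check of it.

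**Figure D2:**
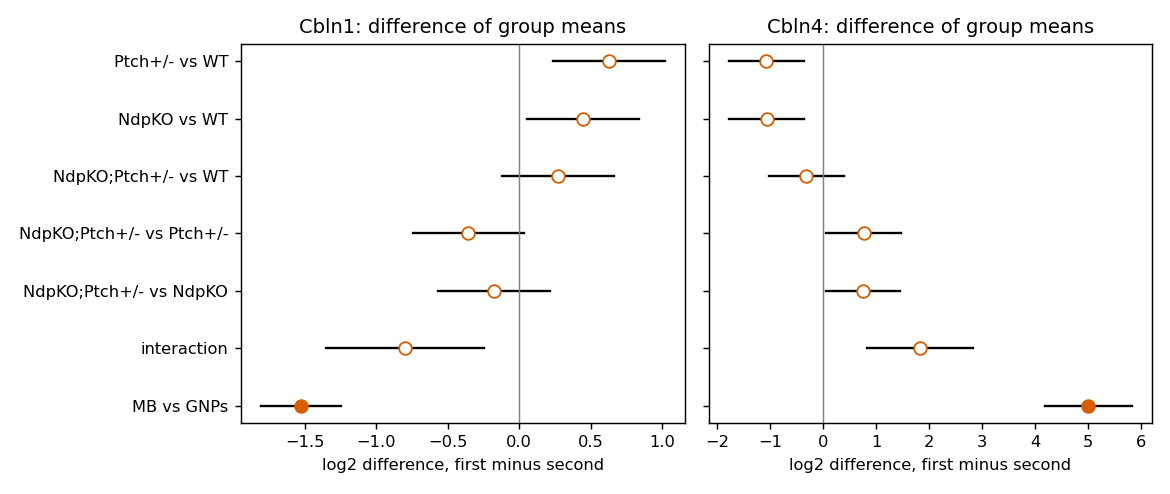
Log2 difference of group means (first minus second) for Cbln1 and Cbln4 in the 7 comparisons, with lines for the 95% interval from limma; filled points passed an adjusted p of 0.05 over all 45281 probes and open points did not. The MB comparison was called for both genes, at -1.53 and 5.0, and no comparison among GNPs was.

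In the GNPs, the mean levels of markers of other cells also differed between genotypes, though few of the markers were called. The mean over 9 astrocyte and Bergmann glia markers, of which S100b was under level 5 on every GNP array, lay between 9.22 and 9.80 in WT, 8.33 and 8.77 in Ptch+/-, 7.94 and 9.10 in NdpKO, and 8.68 and 9.17 in NdpKO;Ptch+/- GNPs. In Ptch+/- against WT GNPs, 1 of the 9 (Sox9) was called lower and none higher, where 1.09% of all probes were called. The median was -0.81 beside 0.00 for all probes. In NdpKO against WT GNPs, Gfap alone of the 9 was called (lower), where 0.307% of all probes were, with a median of -0.82. In the interaction, Sox9 alone of the 9 was called (positive), where 0.495% of all probes were, with a median of 1.34 over the list.

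The endothelial markers, 8 genes of which Kdr was under level 5 on every GNP array, averaged 6.49 to 7.62 on the WT, 5.94 to 6.71 on the Ptch+/-, 5.98 to 7.11 on the NdpKO and 6.47 to 7.92 on the NdpKO;Ptch+/- arrays. None of the 8 was called in Ptch+/- against WT GNPs, in NdpKO;Ptch+/- against Ptch+/- GNPs or in the interaction. The shares of all probes called there were 1.09%, 0.0155% and 0.495%, and the medians over the 8 were -0.66, 0.93 and 1.48. Of 6 oligodendrocyte lineage markers, Pdgfra alone was called in Ptch+/- against WT GNPs (lower), with a median of -0.14 over the list. The 8 microglia markers averaged 5.61 to 6.03 on the WT arrays, against 5.14 to 5.61 (Ptch+/-), 4.93 to 5.28 (NdpKO) and 5.08 to 5.41 (NdpKO;Ptch+/-). None of the 8 was called in any comparison among GNPs, for which the shares of all probes called are given above. The mean over the 6 granule lineage markers (Pax6 under level 5) ran from 9.07 to 9.18 in WT and from 9.24 to 9.40 in Ptch+/- GNPs. It ran from 9.08 to 9.37 in NdpKO and from 9.07 to 9.26 in NdpKO;Ptch+/- GNPs. Zic2 alone of the 6 was called in Ptch+/- against WT GNPs (higher) and in the interaction (negative). Of 5 measured Purkinje cell markers, 4 (Calb1, Car8, Pcp4 and Ppp1r17) were under level 5 on every GNP array. The remaining one, Pcp2, was above it on all 16, with means of 9.36 ± 0.99 (SD, n = 4) for WT, 8.51 ± 1.01 for Ptch+/-, 8.41 ± 0.95 for NdpKO and 9.38 ± 1.21 for the compound GNPs. The mean over 6 GABAergic interneuron markers ran from 6.90 to 7.44 in WT and from 6.48 to 7.12 in Ptch+/- GNPs. It ran from 6.64 to 7.32 in NdpKO and from 6.59 to 7.59 in NdpKO;Ptch+/- GNPs. None of these 6 was called in any comparison among GNPs either. The part of these cells in the cerebellin values was not tested. In bulk RNA, fewer cells of a type and less RNA per cell cannot be told apart.

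Over the 16 GNP arrays, the gene most like Cbln1 among 6913 genes averaging at least 5 was Syn1, which encodes the synaptic vesicle protein synapsin, with a Pearson r of 0.93 (Spearman rho 0.93). Next came Fbxo21, an F-box protein of ubiquitin ligases, with 0.93, Fsd1 with 0.92, Cadps2, which promotes exocytosis of dense-core vesicles in granule cells, with 0.92, and Nudt11 with 0.91. These genes were selected for their r, which is a description over arrays that share genotypes. After the genotype means were removed, r ran from 0.82 (Nudt11) to 0.93 (Syn1) over the arrays on which the genes were selected. The MB arrays did not enter the choice. In the MBs, 3 of the 5 were called lower than in GNPs, as Cbln1 was, and 1 higher, where 14.7% of all probes were called. Cadps2 fell by 1.82 ± 0.26 (adjusted p = 0.0025 in limma), Fsd1 by 0.58 (adjusted p = 0.03) and Nudt11 by 0.31 (adjusted p = 0.014). Syn1 differed by -0.17 (adjusted p = 0.35), and Fbxo21 rose by 0.41 (adjusted p = 0.044). Cbln4 averaged 4.73 over the GNPs and was not searched.

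**Figure D3:**
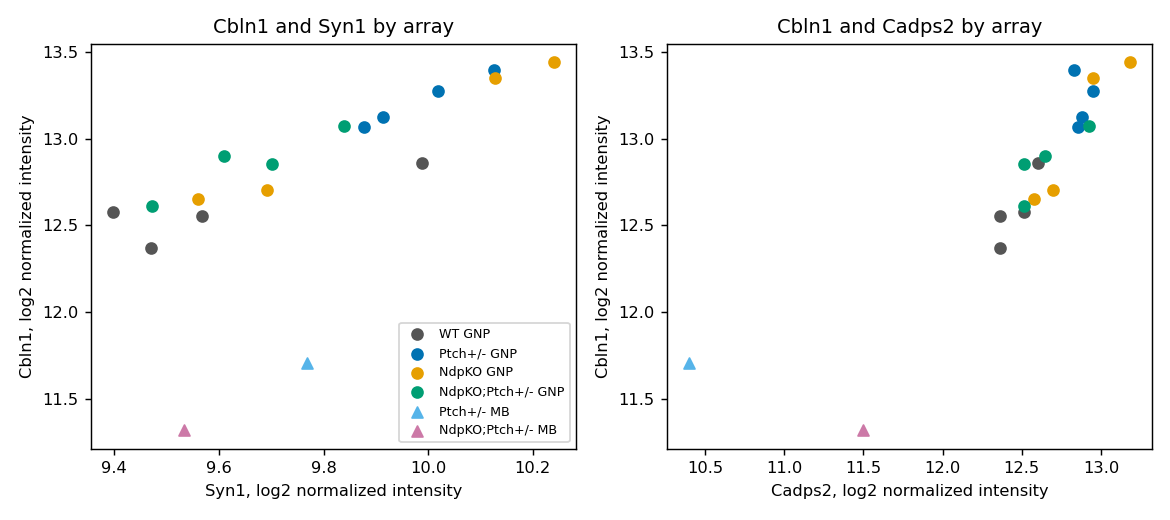
Cbln1 against Syn1 (left) and Cadps2 (right), 1 point per array in log2 normalized intensity, with circles for GNPs and triangles for MBs; levels of different probes are not comparable. The GNP arrays rise together in both panels, the MBs have Syn1 of 9.77 and 9.53 within the range of the GNPs, and Cadps2 lies at 10.40 and 11.50, below the GNPs.

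MBs were compared with the GNPs of the same 2 genotypes (8 arrays). Cbln1 fell by 1.53 ± 0.12, 2.89-fold, with an adjusted p of 1e-04 in limma. Cbln4 rose by 5.0 ± 0.36, at least 23.0-fold, with an adjusted p of 5.8e-05. Of the 4 members 2 were called, against 14.7% of all probes, and for the same 2 the MBs lay outside the GNP range, against 23.1% of all probes. Within each genotype, Cbln1 was 2.85-fold lower in the Ptch+/- MB and 2.92-fold lower in the NdpKO;Ptch+/- MB than the mean of the matching GNPs. Cbln4 was at least 16.7-fold and at least 31.7-fold higher. The NdpKO;Ptch+/- MB exceeded the Ptch+/- MB 2.26-fold in Cbln4 and was 0.39 lower on the log2 scale in Cbln1, with 1 array each and no replicate check.

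The MBs were dissected tissue and the GNPs purified cells, and several lists of cell type markers differed between them. Age may also have differed, since the study describes the MBs as established tumors, and it cannot be told apart from tissue here. Of all probes, 14.7% were called in this comparison, the share to set beside each count below. All 8 microglia markers were called higher in MBs. Their mean was 8.59 and 7.99 in the Ptch+/- and NdpKO;Ptch+/- MBs and 5.08 to 5.61 in the GNPs of these genotypes, and 5 of the 8 were under level 5 on every GNP array. GABAergic interneuron markers averaged 5.15 and 5.06 in the MBs against 6.48 to 7.59 in those GNPs, with 2 of 6 called lower (Slc32a1 and Gad1). The Purkinje cell markers averaged at most 4.2 in the MBs, at background, and Pcp2 was called lower, with 4.55 and 4.12 in the MBs (at least 11.4-fold and 20.8-fold lower). The endothelial markers averaged 5.09 and 5.74 in the MBs against 5.94 to 7.92 on the matching GNP arrays, with 2 of 8 called lower (Cldn5 and Emcn) and a median of -1.49. Of 6 oligodendrocyte lineage markers, 4 (Mbp, Mog, Olig1 and Pdgfra) were called, 2 higher and 2 lower, with a median of 0.33 over the list. Mbp, the myelin basic protein gene and 1 of the 2 lower, read 8.31 and 7.93 in the MBs against means of 12.41 and 12.55 in the Ptch+/- and NdpKO;Ptch+/- GNPs. The granule lineage markers averaged 8.94 and 9.26, and of the 9 astrocyte and Bergmann glia markers 4 were called higher and 2 lower. The part of these cells in the Cbln1 and Cbln4 differences was not tested.

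Of the 4 cerebellin binding partners analysed here (Nrxn2, Nrxn3, Dcc and Neo1), none was called among GNPs, and 1 (Dcc) was called in MBs, against 14.7% of all probes. Under the alternatives, the number called in MBs ran from 0 to 3. In the interaction 1 partner was called without NdpKO replicate 4 and 1 without the probes averaging under 5, and 2 were called without both arrays named above. In NdpKO against WT GNPs, 1 was called without NdpKO replicate 4 and 1 without both arrays. Dcc was at background in all GNPs and read 6.48 and 6.24 in the Ptch+/- and NdpKO;Ptch+/- MBs, at least 2.80-fold and 2.37-fold higher (difference 2.24 ± 0.04, adjusted p = 2.6e-08 in limma). A second Dcc probe rose by 2.18 (adjusted p = 3.4e-06), and the other 2 stayed at background in both tissues. Values at background hardly vary, so the SE and p of Dcc do not measure its spread where it is expressed. The same holds for the probes below that were at background in GNPs.

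Nrxn2 and Neo1 gave different answers by probe. The brightest Neo1 probe averaged 10.56 in GNPs and differed by -0.19 in MBs (adjusted p = 0.55 in limma), whereas 2 dimmer Neo1 probes, near background in GNPs, rose by 3.09 and 2.88 (adjusted p = 2.5e-07 and 4.3e-06) and the remaining one by 0.17. The brightest Nrxn2 probe differed by -0.54 (adjusted p = 0.19), lower by 1.08 in the Ptch+/- MB and level (0.00) in the NdpKO;Ptch+/- MB. A second Nrxn2 probe rose by 2.64 (adjusted p = 7.2e-05) and the other 3 stayed at background. No single direction can therefore be given for either gene. Nrxn3 averaged 4.83 over the GNPs, near background. Among GNPs, the brightest Neo1 probe was 0.48 ± 0.15 higher in NdpKO than in WT (adjusted p = 0.21), and was called without NdpKO replicate 4 (0.62, adjusted p = 0.045). The brightest Nrxn2 probe was 0.46 ± 0.12 higher in Ptch+/- than in WT GNPs (adjusted p = 0.10). It was called without the probes averaging under 5 (adjusted p = 0.032), and the mean of all Nrxn2 probes differed by 0.080 (adjusted p = 0.62).

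The C1q-like proteins are the nearest relatives of the cerebellins, and bind the adhesion receptor Adgrb3, listed here with its family members Adgrb1 and Adgrb2. Of the 7 genes on this list, none was called among GNPs and 3 were called higher in MBs, against 14.7% of all probes. Without NdpKO;Ptch+/- replicate 1, 1 of the 7 was called in the interaction. Without that array and NdpKO replicate 4, 1 was called there and 1 in NdpKO;Ptch+/- against NdpKO GNPs. Without the probes averaging under 5, 1 was called in MBs. C1ql1, the climbing fibre ligand, was at background in GNPs and read 5.10 in the Ptch+/- MB and 7.32 in the NdpKO;Ptch+/- MB (difference 2.07 ± 0.40, adjusted p = 0.011 in limma), at least 1.07-fold and 5.01-fold higher. C1ql2 read 6.10 and 6.88 (2.33 ± 0.14, adjusted p = 2.5e-05), at least 2.14-fold and 3.69-fold higher. Adgrb2 was 0.31 ± 0.08 higher (adjusted p = 0.048), a call that was lost without either MB and, in turn, without each of 7 of the 8 GNP arrays. Adgrb3 differed by -0.30 (adjusted p = 0.43) on its brightest probe, while a dim probe rose by 1.17 (adjusted p = 1.2e-07). C1ql3, C1ql4 and Adgrb1 were at background.

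**Figure D4:**
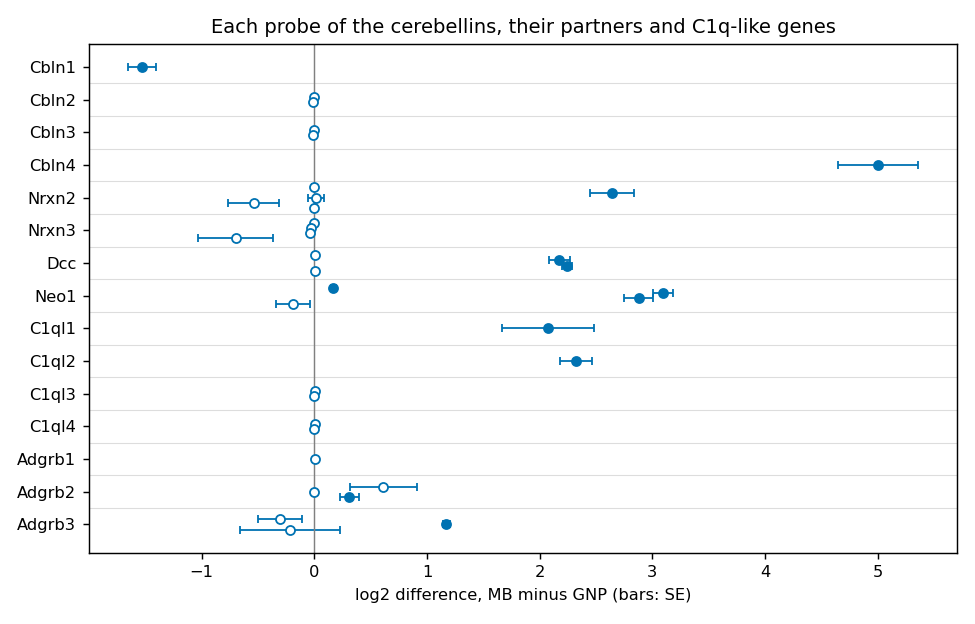
Log2 difference, MB minus GNP, for every probe of the 4 cerebellins, their measured partners and the C1q-like genes, with bars for the SE; filled points passed an adjusted p of 0.05 in limma over all probes. Cbln4 lies farthest to the right at 5.0 and Cbln1 farthest to the left at -1.53, and the probes of Nrxn2, Dcc, Neo1 and Adgrb3 differ within a gene.

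Of 29 other synaptic organizers measured, 1 was called in Ptch+/- against WT GNPs: Slitrk1, a postsynaptic adhesion protein, higher by 0.99 ± 0.11 (adjusted p = 0.0026 in limma), where 1.09% of all probes were called. It was also the 1 called in NdpKO GNPs, higher by 0.61 ± 0.11 (adjusted p = 0.047), where 0.307% of all probes were called. In the interaction, 2 of the 29 were called against 0.495% of all probes, both negative: Cadm3 at -1.95 ± 0.37 (adjusted p = 0.048) and Slitrk1 at -1.29 ± 0.16 (adjusted p = 0.0086). In MBs 8 of the 29 were called, 4 higher and 4 lower, against 14.7% of all probes. The largest were -3.12 for Clstn3 (a calsyntenin), -1.92 for Slitrk1, -1.70 for the neuronal pentraxin Nptx2 and 1.15 for the adhesion protein Flrt2.

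Of 22 granule neuron maturation genes, 4 were called in Ptch+/- against WT GNPs, all higher, beside 1.09% of all probes. They were the NMDA receptor subunit Grin2b (1.18 ± 0.22), the potassium channel Kcnd2 (0.71 ± 0.09), the transcription factor Nfia (0.46 ± 0.07) and the adhesion protein Cntn2 (0.37 ± 0.06), with adjusted p from 0.0066 to 0.029. In NdpKO GNPs 1 was called, Kcnd2, higher by 0.63, where 0.307% of all probes were called. Kcnd2 was also the 1 called in NdpKO;Ptch+/- against WT, higher by 0.69, where 0.0508% were. In the interaction 3 of the 22 were called (Grin2b, Nfia and Cntn2), all negative, where 0.495% of all probes were. None of the 22 was called in NdpKO;Ptch+/- against Ptch+/- GNPs, where 0.0155% were. In MBs 11 of 22 were called, 7 lower and 4 higher, beside 14.7% of all probes. The synaptic vesicle protein gene Syt1 differed by -3.87, and Nfia by 1.77. For 3 others called lower, the value of at least 1 MB lay under level 5, where a fold is a bound. The transcription factor Neurod2 was at least 69.7-fold lower in the Ptch+/- MB and 6.14-fold lower in the NdpKO;Ptch+/- MB than in GNPs of the same genotype. For Kcnd2 these were at least 25.1-fold and 8.12-fold. The vesicular glutamate transporter Slc17a7 was at background in both MBs, at least 3.15-fold and 1.55-fold lower. Of 16 granule progenitor genes, 3 were called in Ptch+/- against WT GNPs (Ptch1 lower, Zic2 higher by 0.76 and Ccnd2 higher by 0.52), beside 1.09% of all probes. Atoh1, Pax6, Gli1, Hhip and Mycn averaged under level 5 in every GNP genotype and lay under it in both MBs. Nothing can be said of their differences at this signal. In the interaction 2 of the 16 were called (Zic2 and Ccnd2, both negative), beside 0.495%, and in MBs 5 (4 higher and 1 lower), beside 14.7%. The medians over these lists in Ptch+/- against WT GNPs were 0.01 for the organizers, 0.09 for maturation and 0.17 for progenitor genes, beside 0.00 for all probes. Only 14 of the 29 organizers, 16 of the 22 maturation and 11 of the 16 progenitor genes averaged at least 5 in GNPs. Genes at background hold a median near 0, so these medians do not show whether the expressed members moved.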

How the data were processed

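The authors processed the Illumina BeadStudio output with the neqc function of limma (background correction from negative controls, quantile normalization, log2) and deposited 1 table of log2 intensities for 45281 probes on 18 arrays. Quantile normalization sets every array to the same median (4.13), so a shift of all genes cannot be seen. Probe to gene pairs came from the platform annotation: 34885 probes had 1 symbol, 18 several and 10378 none. The number of arrays, with 4 per GNP genotype, limits the precision.

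In R 4.3.3 with limma 3.58.1, the 16 GNP arrays were fitted with a mean for each genotype and the 2 MBs with 8 GNP arrays by tissue and genotype, with moderated variances, two-sided tests and Benjamini-Hochberg adjustment over all probes (called below 0.05). A gene was read from its brightest probe. Where a group lay under level 5, a fold is a bound against that level. The study gives each GNP array as a separate animal. Members and lists were chosen with earlier results of these data known. Binding partners and C1q-like genes were named where they averaged at least 5 in GNPs, with those at background there named for their MB values after these were seen. From the other lists, at most 4 called members with the largest differences were named per comparison, plus Gabra6. Nfia was also named in MBs, as the largest rise among the maturation genes called there, and progenitor genes near background were named as such. The 5 genes most like a member were named where the member averaged at least 5 in GNPs. Same-numbered arrays of different genotypes did not deviate together (median r -0.07 over 24 pairs), and no array correlated above 0.997 with another. The fits were tested on simulated data.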

Additional observations from a re-analysis of the deposited data

Results flagged for a closer look

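Of 36 genotype groups of 4 arrays examined for cerebellins, partners and C1q-like genes, 2 held an array far from the other 3, where chance gives about 1 in 20, and both were groups in which Cbln4 lay near background. Cbln4 in Ptch+/- GNP replicate 1 read 4.19, where the other arrays of the group reached 4.30. Cbln4 in NdpKO GNP replicate 4 read 4.55, where the lowest array of the group read 4.18, and this was 1 of the 2 arrays that lay away from their own genotype on the first principal component.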

How the results depend on the processing

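The MB differences of Cbln1 (-1.57 to -1.42) and Cbln4 (4.79 to 5.21) kept their direction and their call under all 15 alternatives run. The mean of all probes of a gene could not change either difference, as each gene had 1 probe. Cbln4 passed the filter for a mean of at least 5 only through its 2 MB values, so that alternative does not test its call. Among GNPs, no alternative reversed Cbln1 or Cbln4. Without probes averaging under 5, which leaves fewer tests, Cbln1 was called in Ptch+/- against WT GNPs (0.63) and in the interaction (-0.80), so 1 cerebellin was called in each in place of 0, and Cbln4 had no value. With an intensity trend and robust moderation, the interaction of Cbln4 was called (1.83), 1 cerebellin in place of 0. With NdpKO replicate 4 and NdpKO;Ptch+/- replicate 1 both left out, a setting added after the data were seen, it was 2.15 for Cbln4 and -1.0 for Cbln1, 2 called. Leaving out each GNP array in turn, the interaction of Cbln4 ran from 1.51 to 2.11 and the count of cerebellins called from 0 to 1. Counting the array with disagreeing labels as NdpKO gave interactions of -0.64 for Cbln1 and 1.81 for Cbln4 (adjusted p = 0.42 and 0.20), neither called. Prm1 read 9.92 on that array, against 4.11 to 4.12 in the NdpKO GNPs. With the replicate number as a block, the interaction of Cbln4 was 1.83 (adjusted p = 0.098), and the block changed no call of a cerebellin. Only 4 of 16 arrays correlated best with their own number. Over MBs, the mean of all probes of a gene turned Neo1 to 1.49, Nrxn2 to 0.42 and Adgrb3 to 0.22. Neo1 and Nrxn2 ran from -0.40 to 0.030 and from -1.08 to 0.0045 when either MB was left out, and Adgrb3 from -0.73 to 0.12. The causes were not tested, beyond what the number of probes sets. Signal near background limits Cbln2, Cbln3 and Cbln4 in GNPs, and 2 MBs limit the tumor comparison.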
